A study of Rattus norvegicus with 98 samples.

Results

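The water channel genes Aqp1, Aqp3, Aqp4, Aqp5 and Aqp8 and the sodium channel gene Scn7a were followed in rat nasal epithelial cells over the time of collection, the inhaled dose of formaldehyde and the route of exposure. The members are every probe set that the array annotation gives to 1 of these 6 genes alone, which are 9 of the 31042 probe sets tested, and the 6 genes are among 14217 genes with a probe set. Aqp1 had 2 probe sets, Aqp4 had 3, and the other genes had 1 each. The genes were chosen by how their signal varied with collection time in air animals, so values of air animals over time are given as a description with no test.

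The study measured messenger RNA on Affymetrix Rat230_2 arrays, 1 array for each of 98 male F344/NCrl rats, labelled as 8 weeks old. Cells were released with proteases from the lateral meatus and nasoturbinate of the level II region of the nose. In the first array set (82 arrays, 20 groups), whole-body inhalation of formaldehyde at 0.7, 2 or 6 ppm, or of air, lasted 6 h per day. It was given on 5 days per week, as far as the collection time allowed. Collection times in that set were 6 h, 24 h, 5 days, 8 days and 19 days. In exposed animals the number of exposures ran with collection time, so time and exposures cannot be told apart there. In the second array set (16 arrays, 4 groups, all at 6 h), rats inhaled 15 ppm or air, or were instilled in each nostril with 40 ul of 400 mM formaldehyde or of distilled water. Groups held 4 animals, except 2 ppm at 5 days and air at 8 days with 5 each. All animals were of the same strain and sex, and each array held the RNA of 1 animal. The label of 8 weeks is the same at all collection times, so it cannot be the age at both start and collection. If it is the age at the start, age ran with collection time.

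Aquaporins are membrane channels through which water crosses cells along osmotic gradients. Aqp1 is known from the endothelium of small vessels, among other sites. Aqp3 is known from the basolateral membrane of basal epithelial cells, where it also passes glycerol. Aqp4 is known from the basolateral membrane of airway surface cells, and Aqp5 from the apical membrane of gland and secretory cells. Aqp8 is a channel of several digestive organs that also passes hydrogen peroxide. Scn7a encodes Nax, an atypical member of the voltage-gated sodium channel family that responds to extracellular sodium and is known from glia, Schwann cells and some epithelia.

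The labelled epithelium was checked against marker lists, each given as the mean log2 signal of the list in an animal. Lists of basal and squamous epithelium (8 genes measured, 9.16 to 11.21) and ciliated cells (5 genes, 9.09 to 11.13) were high in every animal. Lists of cells outside the surface epithelium were measured as well, with endothelium between 6.10 and 8.38 (8 genes) and fibroblasts between 9.25 and 11.67 (8 genes). The olfactory list (8 genes) spanned 7.30 to 11.47, although the labels say that olfactory epithelium was discarded.

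Aqp1 and Scn7a shared a time course in the values below, and Aqp5 was lower after instilled formaldehyde than after instilled water, so the 250 bases before the start of each of these 3 genes are shown. They come from RefSeq on the GRCr8 rat assembly, 5′ to 3′ on the strand of the gene. All 6 genes matched the promoter table. Capitals mark matches, on either strand, to TATAAA (in 12.93% of 33469 promoters of the same length), GGGCGG (30.47%), AGGAAG (29.51%), ACAAAG (16.3%), TGATAA (7.97%) or CACGTG (5.59%).
Aqp1 (GRCr8, chr4:85812534-85812783, plus strand): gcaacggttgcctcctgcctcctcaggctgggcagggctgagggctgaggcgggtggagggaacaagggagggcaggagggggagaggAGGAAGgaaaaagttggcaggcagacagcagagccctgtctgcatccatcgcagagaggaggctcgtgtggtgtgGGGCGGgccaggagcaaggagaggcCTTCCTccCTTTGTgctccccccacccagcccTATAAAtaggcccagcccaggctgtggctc
Scn7a (GRCr8, chr3:71846285-71846534, minus strand): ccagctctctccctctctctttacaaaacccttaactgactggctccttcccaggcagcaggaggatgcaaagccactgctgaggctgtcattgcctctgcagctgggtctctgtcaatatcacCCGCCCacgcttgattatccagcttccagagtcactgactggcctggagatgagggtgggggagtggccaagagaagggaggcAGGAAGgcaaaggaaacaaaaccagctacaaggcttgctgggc
Aqp5 (GRCr8, chr7:132601278-132601527, plus strand): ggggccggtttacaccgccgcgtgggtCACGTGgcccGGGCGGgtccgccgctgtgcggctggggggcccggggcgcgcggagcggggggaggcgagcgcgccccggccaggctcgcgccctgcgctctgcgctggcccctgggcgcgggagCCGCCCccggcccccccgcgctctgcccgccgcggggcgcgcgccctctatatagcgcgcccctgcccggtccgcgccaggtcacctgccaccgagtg
GGGCGG was found in all 3 windows, with 1 match in Aqp1, 1 in Scn7a and 2 in Aqp5. AGGAAG had 2 matches in Aqp1 and 1 in Scn7a, and TATAAA had 1 match in Aqp1, 30 bases before the start. Aqp5 alone of the 3 held CACGTG, once, and TGATAA was not in these windows. The share of G and C was 65.2% in the Aqp1 window, 56.0% in the Scn7a window and 83.2% in the Aqp5 window.

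In air animals, Aqp1 and Scn7a stood low at 6 h, high at 24 h, lowest at 8 days and high again at 19 days. In bulk samples such as these, fewer cells of a type and less RNA per cell cannot be told apart. The Aqp1 probe set 1369625_at read 9.46, 9.81, 10.27 and 9.38 on the log2 scale at 6 h, and 10.58, 10.90, 11.22 and 10.67 at 24 h. It read 10.43, 10.81, 10.67 and 10.15 at 5 days, 8.54, 8.75, 8.93, 9.32 and 7.94 at 8 days, and 10.81, 11.41, 10.69 and 10.69 at 19 days. Every air animal at 8 days lay below every air animal at 6 h, and every one at 24 h lay above all of those at 6 h. The animals at 24 h, 5 days and 19 days overlapped. The means at the 5 times were 9.73 ± 0.41, 10.84 ± 0.29, 10.52 ± 0.29, 8.70 ± 0.51 and 10.90 ± 0.34 (SD, n = 4, and n = 5 at 8 days), so the highest and lowest differed by 2.20 log2 units, or 4.60-fold. The second Aqp1 probe set, 1387651_at, was also lowest at 8 days and next lowest at 6 h, with means of 8.71 ± 0.30, 9.72 ± 0.29, 9.29 ± 0.34, 7.95 ± 0.42 and 9.83 ± 0.31. Its highest and lowest means differed 3.68-fold.

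Scn7a (1370973_at) read 6.56, 6.95, 6.96 and 6.93 in air animals at 6 h and 8.05, 8.16, 8.41 and 8.79 at 24 h. It read 7.26, 7.62, 7.89 and 6.93 at 5 days, 5.07, 5.66, 5.94, 5.58 and 5.67 at 8 days, and 7.66, 7.92, 8.34 and 7.12 at 19 days. The animals at 8 days lay below all other air animals of the first array set, and the animals at 24 h lay above all at 6 h, 5 days and 8 days. Means were 6.85 ± 0.19, 8.35 ± 0.33, 7.43 ± 0.42, 5.58 ± 0.32 and 7.76 ± 0.51 (SD), with a largest difference of 2.77 log2 units or 6.81-fold. Among all probe sets tested, this range of the 5 air means stood at percentile 99.9 for Scn7a and at percentiles 99.7 and 99.6 for the Aqp1 probe sets. The genes were chosen by these air values, so the percentiles restate that choice.

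The other 4 aquaporins varied less with time in air. Aqp3 (1387100_at) had air means of 12.86 ± 0.04, 12.51 ± 0.14, 12.63 ± 0.15, 12.75 ± 0.08 and 12.43 ± 0.07 at 6 h, 24 h, 5 days, 8 days and 19 days, with the 6 h animals between 12.80 and 12.89 and the 19 day animals between 12.32 and 12.48. Its range of 0.44 stood at percentile 81.6 of all probe sets. Aqp5 (1368469_at) had air means from 10.99 ± 0.20 at 19 days to 11.29 ± 0.30 at 5 days, and the animals of these lowest and highest groups overlapped. Aqp8 (1368316_at) had air means within 0.13 of each other, at percentile 13.9. It was a dim probe set, with a mean of 4.58 over all arrays, at percentile 28.7 of all probe set means.

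The 3 Aqp4 probe sets did not share 1 pattern. The brightest, 1372190_at, was highest in air at 6 h (12.80 ± 0.14) and between 12.50 and 12.61 in the means of the other times. Probe set 1368981_at was lowest at 8 days (9.89 ± 0.36) and highest at 19 days (10.48 ± 0.06), and the dimmer 1387397_at was lowest at 8 days (5.31 ± 0.21) and highest at 19 days (5.72 ± 0.08). Over the 20 group means of the first array set, 1368981_at and 1387397_at had a Pearson r of 0.83 with each other, while 1372190_at had r of 0.14 and 0.01 with them. These points share time and dose groups, and the r is a description.

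**Figure D1:**
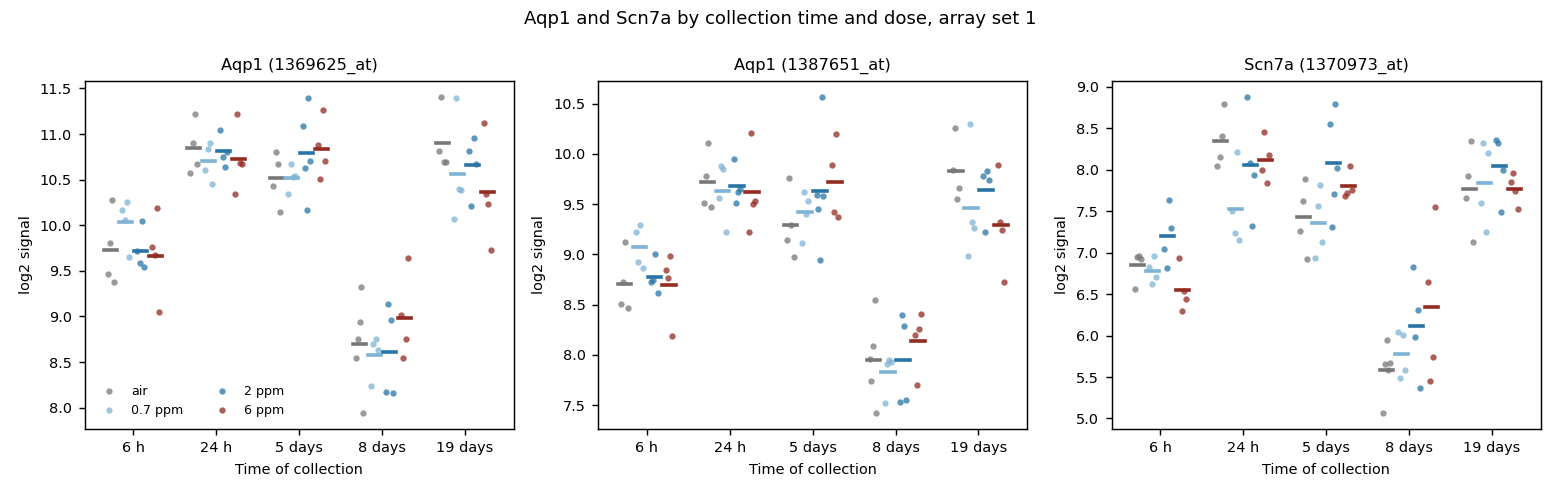
Log2 signal (vertical axis) of the Aqp1 and Scn7a probe sets in each animal of the first array set, by time of collection (horizontal axis) and inhaled dose (colour); points are animals and short lines are group means. All 4 dose groups stood lowest at 8 days, where air means were 8.70 and 7.95 for the Aqp1 probe sets and 5.58 for Scn7a.

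The change with time was tested in the exposed animals of the first array set, as the mean of the 0.7, 2 and 6 ppm groups. The choice of genes rested on air values, but earlier results of the exposed animals were known as well, so these calls are not fully independent of the choice. By the moderated F-test of limma over 4 differences of time, 7 of the 9 member probe sets differed between times at an adjusted p under 0.05, and 45.2% of all probe sets did. The call covered both Aqp1 probe sets (adjusted p = 7.35e-21 and 6.00e-18), Scn7a (9.65e-16), Aqp5 (0.00116), Aqp4 1372190_at (0.0056), Aqp3 (0.00596) and Aqp8 (0.00825). With the 0.7 and 2 ppm groups only, the Aqp8 call was lost (adjusted p = 0.0587). Aqp4 1368981_at and 1387397_at were not called (adjusted p = 0.474 and 0.2). Without the 8 day groups, an alternative chosen after the values were seen, the same count of 7 was called, with an adjusted p of 4.54e-07 for Aqp1 1369625_at and 9.08e-07 for Scn7a.

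Aqp1 rose at 24 h, 5 days and 19 days and fell at 8 days in exposed animals, against 6 h. Aqp1 1369625_at had a median of 9.74 (9.05 to 10.26, n = 12) at 6 h, 10.72 (10.35 to 11.22, n = 12) at 24 h, 10.68 (10.17 to 11.40, n = 13) at 5 days, 8.72 (8.17 to 9.64, n = 12) at 8 days and 10.39 (9.73 to 11.40, n = 12) at 19 days. Every exposed animal at 24 h was above every one at 6 h, and every one at 5 days was above every one at 8 days. Against 6 h, the limma fit gave 0.94 ± 0.15 at 24 h (SE, adjusted p = 2.00e-06), 0.91 ± 0.15 at 5 days (5.21e-06), -1.08 ± 0.15 at 8 days (5.70e-08) and 0.72 ± 0.15 at 19 days (0.000267). On a linear scale this was 1.92-fold higher at 24 h and 2.12-fold lower at 8 days. The other Aqp1 probe set passed in the same 4 comparisons in the same directions, with 0.80, 0.74, -0.88 and 0.62.

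Scn7a had a median of 6.82 (6.29 to 7.64) in exposed animals at 6 h, 7.96 (7.15 to 8.88) at 24 h, 7.72 (6.93 to 8.79) at 5 days, 6.00 (5.36 to 7.55) at 8 days and 7.91 (7.24 to 8.37) at 19 days. The times overlapped more than for Aqp1, and 1 animal at 6 ppm and 8 days, at 7.55, stood inside the range of 24 h. Against 6 h, Scn7a was higher by 1.06 ± 0.18 at 24 h (SE, adjusted p = 5.28e-06 in limma), 0.90 ± 0.17 at 5 days (0.000108) and 1.04 ± 0.18 at 19 days (8.65e-06), and it fell by 0.76 ± 0.18 at 8 days (0.00102). The rise at 24 h was 2.08-fold.

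Of the epithelial members, Aqp3 fell at 24 h (-0.18 ± 0.06, adjusted p = 0.0357 in limma) and at 19 days (-0.20 ± 0.06, 0.0193), against 6 h. Aqp3 1387100_at had exposed medians of 12.78 at 6 h, 12.57 at 24 h, 12.71 at 5 days, 12.72 at 8 days and 12.55 at 19 days. Aqp4 1372190_at fell at 5, 8 and 19 days by 0.22 ± 0.06, 0.19 ± 0.06 and 0.19 ± 0.06 (adjusted p = 0.00359, 0.0157 and 0.0153). Aqp8 fell at 5 days only among the 4 comparisons with 6 h (-0.21 ± 0.05, 0.00191), with 4.30 to 4.62 at 5 days against 4.53 to 4.75 at 6 h. Aqp5 passed in no single comparison with 6 h, where its differences ran from -0.16 at 19 days to 0.24 at 5 days. Leaving out 1 animal at a time ended the Aqp3 call at 24 h in 8 of 24 fits, the Aqp3 call at 19 days in 1 of 24 and the Aqp4 call at 8 days in 1 of 24, which a fit of only the arrays compared ended too (adjusted p = 0.0775), and it ended no Aqp1 or Scn7a call in these comparisons.

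Counted by comparison with 6 h, 4 of 9 member probe sets were called at 24 h, 3 up and 1 down, where 15.3% of all probe sets were called, 8.96% up and 6.3% down. At 5 days 5 members were called, 3 up and 2 down, of 16.9% of all probe sets, 9.62% up and 7.27% down. At 8 days 4 were called, all down, of 15.5% of all probe sets, 9.15% up and 6.35% down. At 19 days 5 were called, 3 up and 2 down, of 14.7% of all probe sets, 7.78% up and 6.87% down. The 3 that rose at 24 h, 5 days and 19 days were the 2 Aqp1 probe sets and Scn7a. Between 19 days and 24 h none of the 9 passed in limma (15.5% of all probe sets did, 6.91% up and 8.57% down), and 1, Aqp5, had an unadjusted p under 0.05.

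Some marker lists of other cell types moved with Aqp1 and Scn7a and others did not. The endothelial list had an exposed median of 7.25 (6.79 to 7.60) at 6 h, 7.54 (7.35 to 7.86) at 24 h, 7.71 (7.28 to 8.38) at 5 days, 6.65 (6.10 to 7.51) at 8 days and 7.38 (7.16 to 7.89) at 19 days. Of its 8 genes, 6 rose at 24 h, 7 at 5 days and 4 at 19 days, and 6 fell at 8 days, all against 6 h. Of all probe sets, 7.78% to 9.62% were up and 6.3% to 7.27% down at these 4 times. Nothing is read from a count of 1 gene in a list. The fibroblast list had 2, 3 and 2 of 8 genes up at 24 h, 5 days and 19 days and 6 of 8 down at 8 days. Smooth muscle and pericyte genes had 2, 4 and 2 of 6 up and 4 of 6 down at 8 days. Cartilage and bone genes had 4 of 6 up at 24 h and 3 of 6 down at 8 days, with none called at 5 or 19 days. Schwann cell genes had none of 6 called at 24 h, 1 up at 5 days, 3 down at 8 days and 1 down at 19 days, when Scn7a was higher. No olfactory or skeletal muscle gene was called at any of the 4 times in limma, 1 of 8 leukocyte genes was up at 5 days, and 2 of 5 ciliated cell genes were down at 19 days. The basal and squamous list had 1 of 8 up and 1 of 8 down at 8 days, and 1 of 8 down at 24 h, 5 days and 19 days. Airway surface secretory genes had 1 of 8 up and 2 down at 5 days, and 1 down at 8 and 19 days. Gland and serous genes had 1 of 13 up at 24 h, 5 days and 19 days, and 1 down at 5 days. Of the erythroid list, 1 of 4 genes was down at 5 days and at 8 days. The part of these cells in the Aqp1 and Scn7a values was not tested.

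**Figure D2:**
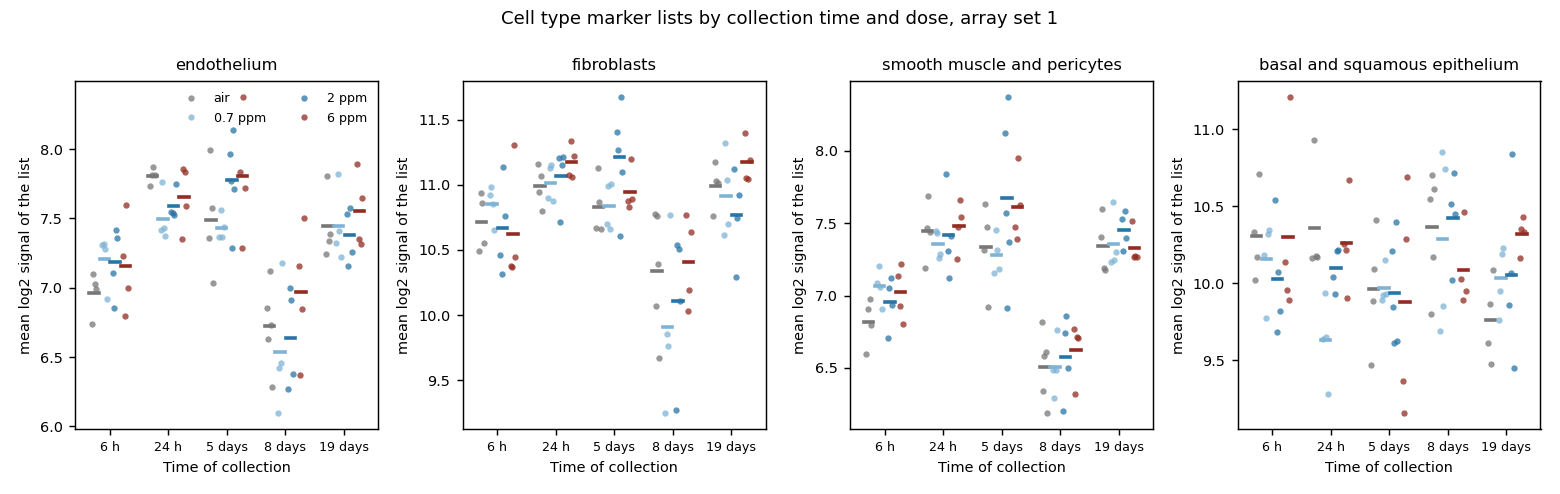
Mean log2 signal of 4 marker lists (vertical axis) in each animal of the first array set by time of collection and inhaled dose; points are animals and short lines are group means. The endothelial list was lowest at 8 days, with an exposed median of 6.65 against 7.25 at 6 h, while the basal and squamous list had exposed medians of 10.24 and 10.10 at these times.

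Array names in the first set take 1 form for all 16 animals at 6 h, another for all 17 at 8 days, and one more for the animals at 24 h and 19 days and 16 of the 17 at 5 days, so the form of the name and the time cannot be told apart. The remaining animal at 5 days, at 2 ppm, carries the 8 day form. It read 10.17 for Aqp1 1369625_at and 7.71 for Scn7a, the first the lowest of its group and both above every exposed animal at 8 days, whose highest values were 9.64 and 7.55. As 1 animal it does not tell form and time apart, and nothing is read from it. Arrays of the second set, all at 6 h, carry a name form like that of 8 days. Air means of Aqp1 1369625_at were 8.33 in that set, 8.70 at 8 days and 9.73 at 6 h of the first set. Scn7a air means were 5.68, 5.58 and 6.85 in the same order. Aqp4 1368981_at went otherwise, with air means of 11.26, 9.89 and 10.10. The part of the name form in these values was not tested. RNA integrity numbers had medians of 8.25, 8.25, 7.9, 8.2 and 8.4 at the 5 times. With that number as a covariate the Aqp1 and Scn7a calls against 6 h stayed past the threshold, and the Aqp3 call at 19 days was lost (adjusted p = 0.0693).

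Genes whose group means ran most like each member were ranked by Pearson r over the 20 groups of the first array set, which share times and doses. The air groups among them were used in choosing the members, so each r is a description. For Aqp1 1369625_at they were Tm4sf1 (r = 0.98), a tetraspanin-like membrane protein, Jam2 (0.98), a junctional adhesion molecule, and Hrct1 (0.97). For Scn7a they were Tm4sf1 (0.97), Cldn5 (0.96), a tight junction claudin, and Jam2 (0.96), and Aqp1 with Scn7a had r of 0.95. Within groups the deviations of Aqp1 and Scn7a from their group means had r of 0.44 over the 98 animals. Aqp5 ran most like Tgm2 (0.93), Man2b1 (0.91) and Acsf2 (0.91), Aqp4 1372190_at like Slc6a14 (0.89), Slc30a3 (0.88) and Pir (0.83), Aqp3 like Rbm22 (0.88), Pcyox1 (0.88) and Fubp3 (0.86), and Aqp8 like Serpina3c (0.84), Gsta3 (0.79) and Pkib (0.76).

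**Figure D3:**
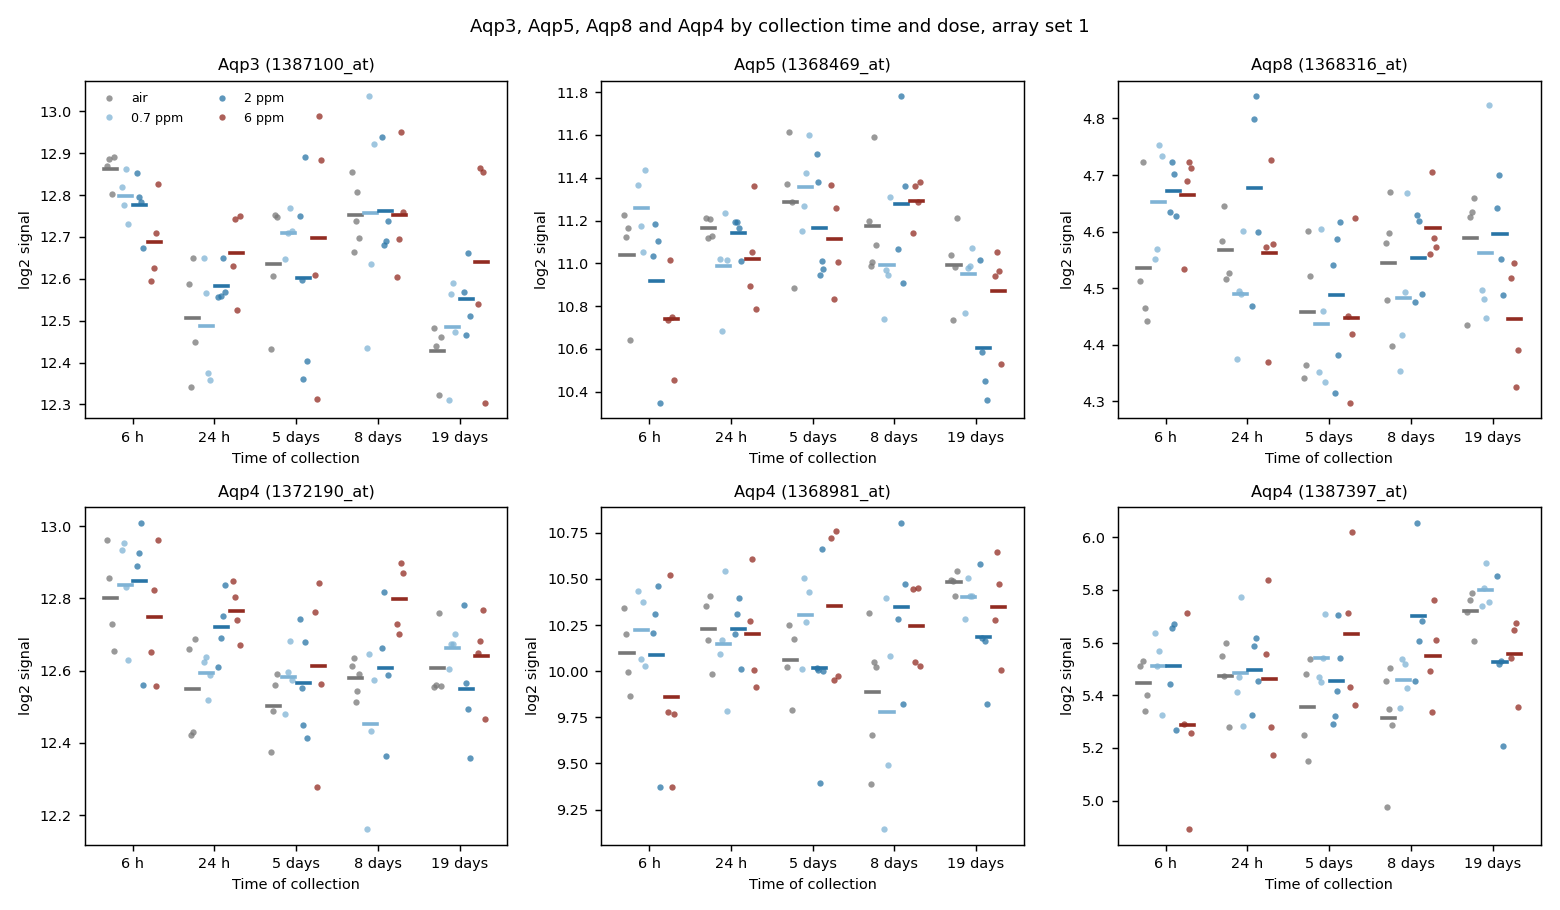
Log2 signal (vertical axis) of the Aqp3, Aqp5, Aqp8 and Aqp4 probe sets in each animal of the first array set by time of collection and inhaled dose; points are animals and short lines are group means. Air means of Aqp8 stayed within 0.13 of each other, and each panel has its own vertical scale.

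Inhaled formaldehyde up to 6 ppm was compared with air of the same time by a moderated F-test over 3 dose differences. None of the 9 member probe sets was called in limma at 6 h, 24 h, 5 days, 8 days or 19 days, where 0.338%, 0.00322%, 0.126%, 0.0387% and 0.261% of all probe sets were. At an unadjusted p under 0.05 there were 1, 0, 1, 4 and 0 members at these times, and the 4 at 8 days were Scn7a and all 3 Aqp4 probe sets (adjusted p from 0.872 to 0.9998). Aqp4 1372190_at at 6 ppm and 8 days read 12.73, 12.70, 12.90 and 12.87, against 12.61, 12.64, 12.51, 12.54 and 12.59 in air, a difference of 0.22 ± 0.10 (SE). Among the members it was the one inhaled group of the first array set, at any dose and time, that did not overlap air. How often such a separation arises over all probe sets was not computed, so nothing is read from it. The intervals of single differences show what these groups could resolve, and they carry no test. Scn7a at 0.7 ppm and 24 h read 7.51, 7.24, 8.22 and 7.15, against 8.05, 8.16, 8.41 and 8.79 in air, a difference of -0.82 ± 0.30 (SE). Scn7a at 6 ppm and 8 days read 6.64, 5.45, 5.75 and 7.55, against 5.07, 5.66, 5.94, 5.58 and 5.67 in air, a difference of 0.76 ± 0.29. Both pairs of groups overlapped. Air at 24 h and at 8 days were the highest and lowest air groups of Scn7a, which the choice of genes used, so both differences are set against selected extremes. Aqp1 1369625_at differed most at 6 ppm and 19 days (-0.54 ± 0.26), where it read 11.13, 10.35, 10.24 and 9.73, against 10.81, 11.41, 10.69 and 10.69 in air. Air at 19 days was the highest air group of Aqp1, so that difference too is set against a selected extreme. Aqp5 differed most at 2 ppm and 19 days (-0.39), and Aqp3 and Aqp8 differed by at most 0.21 and 0.14 in size at any dose and time. Of the related genes, none of the 7 other aquaporins, 11 other sodium channel genes, 20 epithelial ion transport genes and 7 partner genes was called for dose at any of the 5 times.

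**Figure D4:**
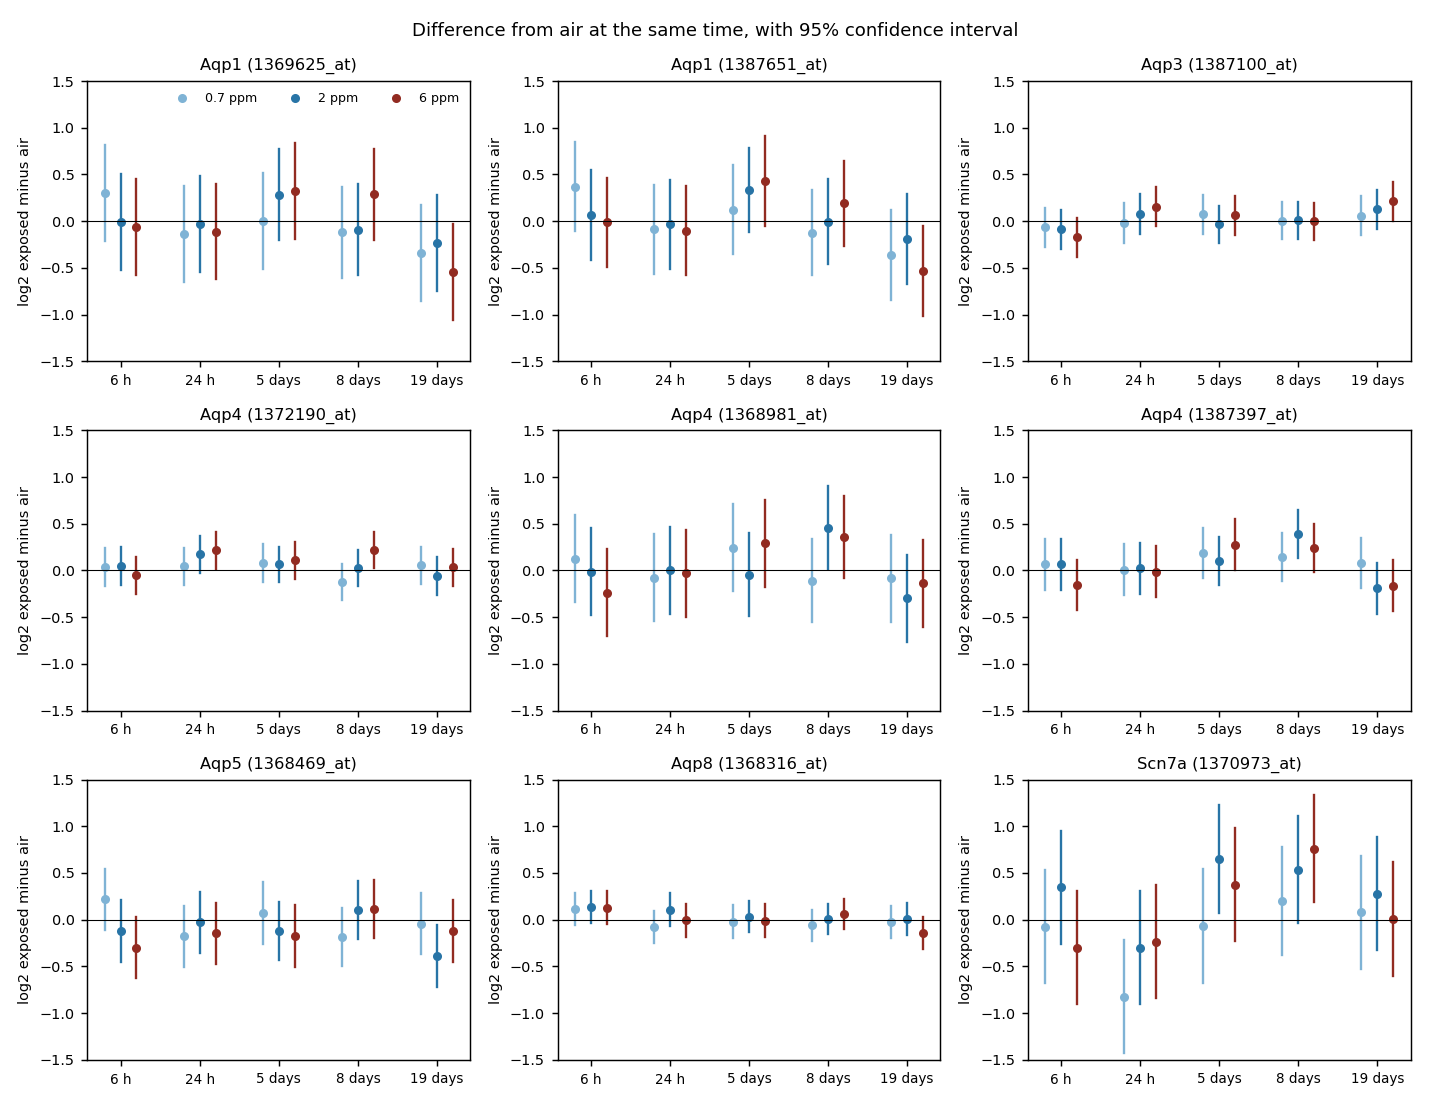
Difference of the group means, exposed minus air of the same time, on the log2 scale (vertical axis) for each member probe set at 5 times (horizontal axis) and 3 inhaled doses (colour); bars are 95% confidence intervals from the fit, unadjusted. Scn7a spanned -0.82 to 0.76, both ends measured against the air groups (24 h and 8 days) whose extreme values the choice of genes used.

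At 15 ppm for 6 h, Aqp8 was the single member called against air of the same array set, where 8.49% of all probe sets were called, 4.32% up and 4.17% down. Aqp8 read 5.09, 4.93, 4.66 and 4.91 at 15 ppm, against 4.55, 4.45, 4.42 and 4.59 in air. The groups did not overlap, although 1 exposed animal lay close to the highest air animal. The difference was 0.40 ± 0.09 (SE, 1.32-fold, adjusted p = 0.000871 in limma), on a dim probe set. RNA integrity numbers were 7.7 to 8.2 at 15 ppm and 7.3 to 7.8 in air of that set. They were 8.3 to 8.4 after instilled formaldehyde and 7.5 to 8.3 after water. The part of RNA integrity in comparisons within the second array set was not tested. Aqp4 1368981_at averaged 10.70 ± 0.40 at 15 ppm and 11.26 ± 0.31 in air (SD, n = 4 each; difference -0.56 ± 0.23 SE, adjusted p = 0.139). Aqp5 averaged 11.05 ± 0.27 at 15 ppm and 11.36 ± 0.19 in air (difference -0.31 ± 0.17 SE, adjusted p = 0.282). Among epithelial ion transport genes, 4 of 20 fell at 15 ppm and none rose, namely Kcnq1, a potassium channel (-0.44, adjusted p = 0.00435), Slc12a2, the sodium, potassium and chloride cotransporter (-0.52, 0.00646), Ano1, a calcium-activated chloride channel (-0.76, 0.00982), and Nedd4l, a ubiquitin ligase of the epithelial sodium channel (-0.62, 0.00998). The list's median was -0.17, beside 0.01 over all probe sets.

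Instilled formaldehyde against instilled water changed 6 of the 9 member probe sets, 5 down and 1 up, where 22.2% of all probe sets were called, 12.4% down and 9.83% up. Aqp5 read 11.21, 11.44, 11.57 and 11.26 after formaldehyde, against 11.87, 12.10, 11.85 and 12.30 after water. No animal overlapped, and the difference was -0.66 ± 0.17 (SE, 1.58-fold lower, adjusted p = 0.00139 in limma). Against air of the same array set, a comparison chosen after the values were seen, Aqp5 differed by 0.01 ± 0.17 (adjusted p = 0.979), since the water animals stood 0.67 ± 0.17 above air. That last difference did not pass (adjusted p = 0.0978), although water and air animals did not overlap and air read 11.63, 11.25, 11.34 and 11.22.

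Aqp4 was lower after instilled formaldehyde at all 3 of its probe sets. Probe set 1368981_at read 10.00, 10.14, 10.76 and 9.71, against 10.86, 10.98, 11.07 and 11.48 after water. The groups did not overlap, and the difference was -0.94 ± 0.23 (SE, 1.92-fold lower, adjusted p = 0.00135). Probe set 1372190_at read 12.95, 12.77, 12.95 and 12.88, against 13.21, 13.21, 13.17 and 13.31 after water (-0.34 ± 0.10, adjusted p = 0.00898), again with no overlap. The dim probe set 1387397_at fell by 0.40 ± 0.14 (adjusted p = 0.0251), with 1 water animal at 6.44 and the other three between 5.71 and 5.86. Against air of the same array set the first 2 probe sets were also lower (-1.11 ± 0.23, adjusted p = 0.000105, and -0.26 ± 0.10, 0.043), and 1387397_at was not called (-0.18 ± 0.14, 0.335).

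Aqp3 read 12.79, 13.16, 12.91 and 12.72 after formaldehyde, against 13.10, 13.21, 13.15 and 13.22 after water (-0.27 ± 0.11, adjusted p = 0.0491). Aqp8 read 5.05, 4.59, 4.92 and 4.95, against 4.58, 4.69, 4.71 and 4.61 after water (0.23 ± 0.09, adjusted p = 0.0427). In both genes 1 instilled animal, the same one, lay inside the range of the water animals. Leaving out 1 animal at a time ended the Aqp3 call in 7 of 8 fits, the Aqp8 call in 5 of 8 and the call of Aqp4 1387397_at in 2 of 8, while Aqp5 and the other Aqp4 probe sets kept theirs. A fit of only the arrays compared ended the calls of Aqp3, Aqp8 and Aqp4 1387397_at (adjusted p = 0.13, 0.205 and 0.133). Aqp1 1369625_at (-0.23 ± 0.26, adjusted p = 0.588) and Scn7a (-0.37 ± 0.30, 0.419) were not called, and their 95% intervals reached -0.74 and -0.98. Against air of the same array set, Aqp8 was higher after instilled formaldehyde (0.38 ± 0.09, adjusted p = 0.000398 in limma). Aqp3 was not called in that comparison (-0.09 ± 0.11, 0.541).

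Related transport genes were called after instillation as well. Of all probe sets 22.2% were called, 12.4% down and 9.83% up. Of 20 epithelial ion transport genes, 7 fell and 3 rose, with a list median of -0.20 beside 0.02 over all probe sets. Ano1 fell by 1.40 ± 0.21 (SE, adjusted p = 1.67e-07), Trpv4, an osmotically gated cation channel, by 1.09 ± 0.16 (1.06e-07) and Atp1b1, a subunit of the sodium pump, by 0.46 ± 0.09 (7.57e-05). Of 7 genes of proteins that partner aquaporins or Nax, 4 fell and none rose. They included Dag1, the dystroglycan that anchors AQP4 in glia (-0.55 ± 0.10, 3.25e-05). Of the 7 other aquaporins measured, Aqp9 (0.63) and Aqp7 (0.35) were higher, both at dim probe sets, a count that does not set this list apart. Beside these, 5 of 8 leukocyte genes were higher, with a list level of 9.05 to 9.47 after formaldehyde against 8.11 to 8.48 after water. Of the gland and serous list 2 of 13 genes were higher and none lower, of the ciliated list 2 of 5 were lower, and of the endothelial list none of 8 was called. The part of these cells in the aquaporin values was not tested.

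Water alone against air called none of the 9 members in limma (0.0129% of all probe sets), with 1 at an unadjusted p under 0.05, Aqp5. The 15 ppm effect minus the instillation effect, each against its own control, called none of the 9 (0.879% of all probe sets, 0.325% up and 0.554% down), and none had an unadjusted p under 0.05. The differences of effects were 0.35 ± 0.23 (SE, 95% interval -0.11 to 0.82) for Aqp5 and 0.39 ± 0.33 (-0.27 to 1.05) for Aqp4 1368981_at. The inhaled and instilled doses are not on 1 scale, so a difference between the routes is also one of dose.

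**Figure D5:**
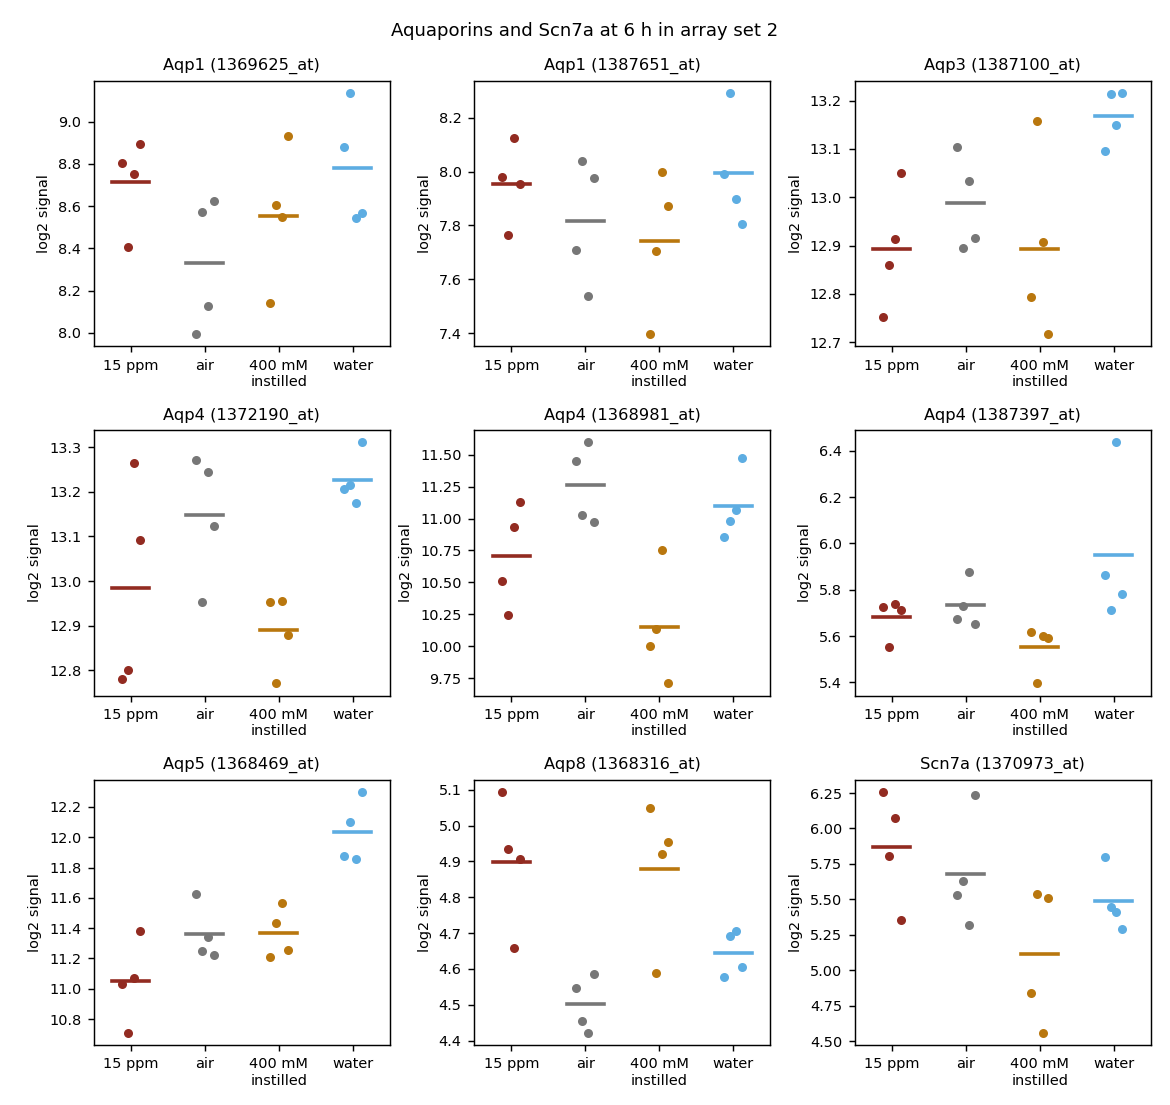
Log2 signal (vertical axis) of each member probe set in each animal of the second array set, all at 6 h, for 15 ppm, air, 400 mM instilled formaldehyde and instilled water; points are animals and short lines are means. Aqp5 averaged 11.37 after instilled formaldehyde, against 12.03 after water, and the air mean was 11.36.

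Air at 6 h was present in both array sets. The air group of the first set was among the values that the choice of genes used, so the comparison is a description and nothing is read from its count, which was 5 of 9 members past the threshold (4.7% of all probe sets, 2.21% down and 2.49% up). Aqp1 1369625_at read 7.99, 8.57, 8.13 and 8.62 in the second set, against 9.46, 9.81, 10.27 and 9.38 in the first, with no overlap. The difference was -1.40 on the log2 scale, and it was -0.89 for the other Aqp1 probe set. Scn7a read 5.53, 5.63, 5.32 and 6.23 in the second set, against 6.56, 6.95, 6.96 and 6.93 in the first, a difference of -1.17 with no overlap. Aqp4 1368981_at stood 1.16 higher in the second set and 1372190_at stood 0.35 higher. The endothelial list stood at 6.22 to 6.43 in the second set, against 6.74 to 7.10 in the first. The array set and whatever else differed between these animals cannot be told apart.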

How the data were processed

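Values of 98 arrays were used as deposited, on the log2 scale, 1 per probe set and animal; the scale was read from the values, since the authors' summarisation, background correction and normalization are not given in the sources used here. Members and gene lists were chosen with earlier results of these data known. Of 31099 probe sets, 57 controls were left out. Symbols came from the array annotation, updated to RefSeq (GRCr8): 20826 probe sets had 1 symbol, 436 several and 9780 none listed. A gene on a list was read from its brightest probe set. One coefficient per group was fitted in limma 3.58.1 (R 4.3.3) to all 98 arrays (74 residual degrees of freedom) with Benjamini-Hochberg adjustment over 31042 probe sets, two-sided, and 16 comparisons were made. The fit was tested on simulated data. Named transport genes were up to 4 called genes of smallest p per comparison; other names were chosen after values were seen. Array medians lay between 5.94 and 6.07, the lowest correlation of 2 arrays was 0.9287, and no arrays were identical. Precision rests on the number of animals, and the labels give 1 animal per array. P-values set a difference of means against the spread between animals within groups. That spread does not cover a processing difference that runs with collection time. The time of 8 days is in the labels and not in the series' design text, and for the 0.7 ppm group at 8 days a treatment label is lower than the titles, which were used. Alternatives were cyclic loess, dropping dim probe sets, fitting only the compared groups, other controls and leaving out each animal. For time in exposed animals alone, they were also RNA integrity as a covariate (85 arrays) and 0.7 and 2 ppm only.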

Additional observations from a re-analysis of the deposited data

Results flagged for a closer look

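In 216 combinations of a group and a member probe set, 10 had 1 animal whose gap to the nearest other was large for the range of its group (Dixon's test at the 95% level). Chance alone flags about 1 in 20 groups. In Aqp1 1387651_at these were an animal at 9.22 in 2 ppm at 19 days and one at 7.52 in 0.7 ppm at 8 days, both low. Scn7a had a low animal at 6.56 in air at 6 h of the first array set. Aqp3 had a high animal at 12.65 in 2 ppm at 24 h, and Aqp5 a low one at 11.01 in the same group. Aqp4 1372190_at had a high animal at 12.76 in air at 19 days. Aqp4 1387397_at had a low animal at 5.40 after instilled formaldehyde and a low one at 5.55 at 15 ppm. Aqp8 had a low animal at 4.44 in air at 19 days and a high one at 4.82 in 0.7 ppm at 19 days.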

How the results depend on the processing

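No paired analysis was possible because animal numbers are not shared between groups. After cyclic loess, Aqp8 lost its call after instillation (0.17, adjusted p = 0.148), and the near-zero differences of Aqp3 at 8 days (-0.0057) and of Scn7a between 19 days and 24 h (0.0064) changed sign. With the brighter probe sets only, members called at 15 ppm fell to 0 because Aqp8 was dropped, 1 was called between 19 days and 24 h (Aqp5, adjusted p = 0.0448), and all calls were 0 for dose at 24 h, 125 for dose at 19 days and 10 for water. With only the compared groups, all calls were 3, 0, 6, 0 and 16 for dose at the 5 times, 3649 for instillation, 129 for water, 84 for the difference of effects and 2910 between the air groups; members called after instillation were 3, and Aqp4 1372190_at lost its call at 8 days (adjusted p = 0.0775). With RNA integrity as a covariate, all calls at 19 days were 2642 against 6 h and 2965 against 24 h, 1 member was called in the comparison with 24 h (Aqp5, -0.35, adjusted p = 0.038), and Aqp3 turned to -0.0308 at 8 days and 0.029 between 19 days and 24 h. With 0.7 and 2 ppm only, Aqp8 lost its time call (adjusted p = 0.0587), and all calls against 6 h were 2736, 1795, 2900 and 2221, and 3141 between 19 days and 24 h; Aqp4 1387397_at turned to -0.0195 at 24 h and -0.0107 at 5 days, Aqp5 to -0.0229 at 24 h, Aqp3 to -0.027 and Aqp4 1368981_at to -0.0945 at 8 days, and Scn7a to 0.15 between 19 days and 24 h. Of 2 alternatives chosen after seeing the data, instillation against air called 3 members, Aqp4 1368981_at (-1.11), Aqp4 1372190_at (-0.26) and Aqp8 (0.38). Aqp5 (0.0078) and Aqp1 1369625_at (0.23) changed sign there and were not called. The other, 15 ppm against air of the first set, called 4 members and 4763 probe sets. Differences that changed sign in it were Aqp1 (-1.02 and -0.75), Scn7a (-0.98), Aqp3 (0.0312), Aqp4 (0.18, 0.60 and 0.24) and Aqp5 (0.009). The cause of these changes was not tested.

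Leaving out each animal gave 30 to 285, 0 to 25, 21 to 114, 5 to 17 and 19 to 133 calls for dose at the 5 times, always 0 members; 13490 to 14603 for time in exposed animals, always 7 members; 4009 to 4882 (3 to 4 members), 4565 to 6053 (5 to 6), 4162 to 5032 (3 to 4) and 3970 to 5012 (4 to 6) against 6 h, and 4080 to 5375 (0 to 1) between 19 days and 24 h. It gave 1781 to 2549 calls (always 1 member) at 15 ppm, 5138 to 7061 (4 to 5) for instillation, 1 to 15 (0) for water, 104 to 574 (0) for the difference of effects and 883 to 1125 (2 to 5) between the air groups. Leaving out 1 animal also turned the sign of uncalled differences: Aqp3 (-0.0277 to 0.039) and Aqp4 1368981_at (-0.014 to 0.1387) at 8 days against 6 h, Aqp3 (-0.0433 to 0.0191) and Scn7a (-0.0957 to 0.0776) at 19 days against 24 h, and Aqp8 (-0.0643 to 0.0295) between the air groups.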

Other observations

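Some other transport genes changed with time in the exposed animals of the first array set. Scn3a, a neuronal sodium channel, was higher by 0.66 ± 0.16 at 24 h (SE, adjusted p = 0.00215 in limma) and by 0.61 ± 0.16 at 19 days (0.00524), against 6 h. Kcnn4, a calcium-activated potassium channel, was 1.03 ± 0.21 higher at 5 days (0.000334). Kcnq1 fell by 0.42 ± 0.06 (6.98e-07) and Dag1 by 0.39 ± 0.06 (1.25e-06) at 19 days against 24 h. Of 20 epithelial ion transport genes, 11 differed between times, and of the 7 other aquaporins 2 did, Mip and Aqp9, both dim, where 45.2% of all probe sets did; neither count sets its list apart.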
